A study of Mus musculus with 15 samples.

Results

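Solute carriers are membrane proteins that move small molecules across the plasma membrane and across the membranes of organelles, and their symbols name the family with a number and the member with a second number after the letter a. The genes described here were all rows of the mouse expression table whose symbol begins with Slc, a family number, the letter a and a member number, and whose mean over all 15 samples reached 1 FPKM, a count of fragments scaled by transcript length and by sequencing depth. The symbol pattern fits 350 rows, of which 199 had a mean under 1 FPKM, 52 of them listed at 0 in every sample. A further 7 were left out by name, since the rule set aside 9 symbols for iron, cystine, arginine, glucose, fructose, lactate and carnitine transport (Slc40a1, Slc11a1, Slc11a2, Slc7a11, Slc7a2, Slc2a1, Slc2a5, Slc16a3 and Slc25a20), of which 2 were also under the mean. That left 144 members of 40 families among the 11419 genes whose mean reached that limit, in a table of 55335 rows. Membership thus rested on the mean level over the 3 groups, and levels near the limit are a description only: the last members inside it were Slc25a35 (mean 1.13 FPKM), Slc22a4 (1.11) and Slc25a26 (1.07), and the first rows outside it were Slc22a21 (0.956), Slc2a3 (0.933) and Slc12a2 (0.890). A total of 7 members were under 1 FPKM in the mean of some group, 5 of them in the control samples (Slc39a8, Slc39a4, Slc25a23, Slc25a27 and Slc25a40) and 2 in both miRNA groups (Slc27a6 and Slc22a4). These 7 passed through the group in which they were high and so had to differ.

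The RNA came from tumor-associated macrophages (TAMs), sorted as CD11b+ F4/80high cells from tumors in the livers of C57BL/6 mice 3 weeks after Hepa1-6 cells were injected there. Hepa1-6 is a mouse hepatoma line, here also carrying luciferase. In the miR-144 and miR-451a groups the injected tumor cells had received a lentivirus that overexpresses that microRNA, and in the control group a control lentivirus. All mice bore a tumor, and each group held 5 samples. The sources used here do not give the mouse behind each sample, and the study's description of the sequencing names fewer replicates than the labels hold. Whether the samples of a group are independent is therefore not known, and p-values measure only the spread between them, which may be technical. Because the macrophages were sequenced in bulk, fewer cells that express a gene and less of its RNA per cell cannot be told apart.

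Macrophages take up and digest dying cells, and transporters of their phagosomes, lysosomes and plasma membrane pass on the amino acids, nucleosides, sugars, heme and metals set free. Zinc is moved out of the cytosol by the Slc30 family and into it by the Slc39 family, and the Slc25 family carries metabolites across the inner mitochondrial membrane. Small organic solutes that balance osmotic pressure, such as betaine, myo-inositol and taurine, enter cells through Slc6a12, Slc5a3 and Slc6a6.

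The mature sequences of the 2 microRNAs, as RefSeq gives them, are shown because they define the groups. Both hairpins lie on the plus strand of chromosome 11 (GRCm38.p6), with miR-144-3p at chr11:78073047-78073066, miR-144-5p at chr11:78073010-78073032 and miR-451a at chr11:78073186-78073207. Capitals mark the seed, bases 2 to 8 from the 5′ end, and no seed is shared. The labels do not name an arm of miR-144.
mmu-miR-144-3p: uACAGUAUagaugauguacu
mmu-miR-144-5p: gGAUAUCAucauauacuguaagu
mmu-miR-451a: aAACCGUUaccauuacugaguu

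The depth the low values implied ran from 15500000 to 30300000 fragments a sample. The table lists Itgam, which encodes CD11b, under 2 identifiers, and the 2 rows trade off between samples. In control sample 1 they were at 38.8 and 34.5 FPKM, and in control sample 2 at 9.99 and 68.5 FPKM. Neither row alone thus gives the level of Itgam. The 7 rows of 6 macrophage markers (Adgre1, Csf1r, Cd68, Mertk, Fcgr1 and Itgam) summed to 2046 to 2167 FPKM in the control, 2201 to 2328 FPKM in the miR-144 and 2191 to 2332 FPKM in the miR-451a samples. All marker calls here came from a separate limma fit without the limit of level, over the 29540 genes above 0 in at least 1 sample. That fit called 23.1% of genes higher and 9.65% lower with miR-144, and 24.5% and 9.69% with miR-451a. Of the macrophage rows 5 were called higher and 1 lower with miR-144, and 4 higher and 1 lower with miR-451a. The 2 Itgam rows were tested apart, and their only call was for 1 row, higher with miR-144 (1.43 log2 units). Adgre1, which encodes the sort marker F4/80, was higher by 1.39 and 1.36 log2 units with miR-144 and miR-451a, Fcgr1 by 2.69 and 2.64 and Csf1r by 0.78 and 0.79, while Cd68 was lower (-0.65 and -0.67). All 5 hepatocyte markers (Alb, Apoa1, Ttr, Serpina1a and Apoc3) were listed at 0 in every sample. Of 5 Kupffer cell markers, Clec4f was listed at 0 throughout and the other 4 were higher in both miRNA groups. Their sum was 3.30 to 3.77 FPKM in the control samples, 17.1 to 50.1 FPKM in the miR-144 samples and 15.99 to 47.3 FPKM in the miR-451a samples, and Cd5l made up most of it. Without the samples numbered 3 and 4 the sum was 3.30 to 3.77, 17.1 to 20.7 and 15.99 to 19.2 FPKM. Of 5 fibroblast and stellate cell markers, Lrat was listed at 0, and the sum of the list, mostly collagen genes, was 103 to 128 FPKM in the control, 136 to 201 FPKM in the miR-144 and 174 to 223 FPKM in the miR-451a samples. At far lower levels, the sums of 3 more lists lay above the control samples in every miRNA sample. Few of their markers were called. Kdr (endothelial), Cd79b (B cell) and Siglech (dendritic cell) were called higher in both miRNA groups, and Xcr1 (dendritic cell) in the miR-451a group alone. The endothelial marker Pecam1 went the other way and was called lower in the miR-144 group alone. No other marker of these lists was called. The 4 endothelial markers summed to 3.70 to 4.29 FPKM in the control, 4.67 to 5.02 FPKM in the miR-144 and 4.65 to 5.93 FPKM in the miR-451a samples, the 4 B cell markers to 0.138 to 0.375, 1.11 to 1.45 and 1.17 to 1.73 FPKM, and the 4 dendritic cell markers to 0.252 to 0.314, 0.444 to 0.670 and 0.424 to 0.643 FPKM. The part of these shifts in the results was not tested, for the macrophage markers or for any other list. The sums for hepatoma cells, T cells, neutrophils and erythroid cells reached at most 1.79 FPKM in any sample, and none of their markers was called in the fit without the limit of level. Samples 3 and 4 of each group also differed from samples 1, 2 and 5 in a set of genes, and results that rest on them are given with and without them.

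Transporters differed between TAMs of control tumors and of tumors with either microRNA about as often as genes at large, and in both directions. In the miR-144 group 62 of the 144 members were higher and 41 lower than in the control group, and 41 did not pass an adjusted p of 0.05 (limma on log2(FPKM + 1), Benjamini-Hochberg over 11419 genes). In the miR-451a group 59 were higher, 42 lower and 43 did not pass. Members called thus made up 71.5% and 70.1%, beside a background of 67.2% and 68.3% of all genes tested, a share near the background. By direction, 43.1% of members were higher in the miR-144 group (47.1% of all genes) and 28.5% were lower (20.1%), and in the miR-451a group 40.97% were higher (48.1%) and 29.2% lower (20.3%). The samples of the 2 groups did not overlap at all for 88 members in the miR-144 comparison and for 88 in the miR-451a comparison, or 61.1% in each, beside 53.9% and 55.2% of all genes. Of the 137 members that reached 1 FPKM in the mean of every group, 57 were higher and 39 lower with miR-144, and 54 higher and 40 lower with miR-451a. The median change of the members was 0.07 log2 units in each comparison, and that of all genes 0.13 for miR-144 and 0.14 for miR-451a. These shares of all genes, about 47.1% higher and 20.1% lower with miR-144 and 48.1% and 20.3% with miR-451a, are also the background of the counts given below for each class and family.

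That shift of all genes decides many small calls. Centring each sample on its median moves all genes alike, and so lowers the share called higher and raises the share called lower. With it, 42 members (29.2%) were higher and 56 (38.9%) lower in the miR-144 group, beside 30.8% and 30.7% of all genes, and 41 (28.5%) were higher and 59 (40.97%) lower in the miR-451a group, beside 31.3% and 31.8%. No member called higher became called lower. On the deposited scale and under quantile normalization, centring and rescaling to TPM (transcripts scaled to a fixed total) alike, 39 members (27.1%) were higher and 38 (26.4%) lower in the miR-144 group, beside 29% and 16.3% of all genes, and 38 (26.4%) were higher and 36 (25%) lower in the miR-451a group, beside 29.7% and 16.1%. Changes of 1 log2 unit or more, on the log2(FPKM + 1) scale, were seen in 9 members (6.25%) upward and 10 (6.94%) downward for miR-144, beside 4.65% and 3.19% of all genes, and in 12 (8.33%) upward and 10 (6.94%) downward for miR-451a, beside 4.97% and 3.39%. These counts include Slc39a4 upward and Slc27a6 and Slc22a4 downward, which passed the limit of level through the groups in which they were high and so had to differ. All genes were held to the same limit, and shares without such genes are not given. The comparisons share their control samples, so the values of each are given side by side and their likeness is not a result. The members described below were picked by level and by size of change within each substrate class or belong to a set of lysosomal and heavy chain transporters. Those picked by size of change had to be called, without overlap with control, in both comparisons. For them the lack of overlap was a condition of the choice and is a description only. Others were chosen after their values were seen, to describe the rest of a family or class (Slc1a5, Slc2a6, Slc2a8, Slc9a7, Slc12a4, Slc12a9, Slc16a7, Slc16a13, Slc22a5, Slc25a1, Slc25a3, Slc25a4, Slc25a12, Slc25a13, Slc25a28, Slc27a4, Slc29a1, Slc31a1, Slc31a2, Slc36a4, Slc37a3, Slc43a2, Slc44a1 and the Slc30, Slc39 and Slc41 members other than Slc30a1, Slc30a4, Slc39a1 and Slc39a4).

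**Figure D1:**
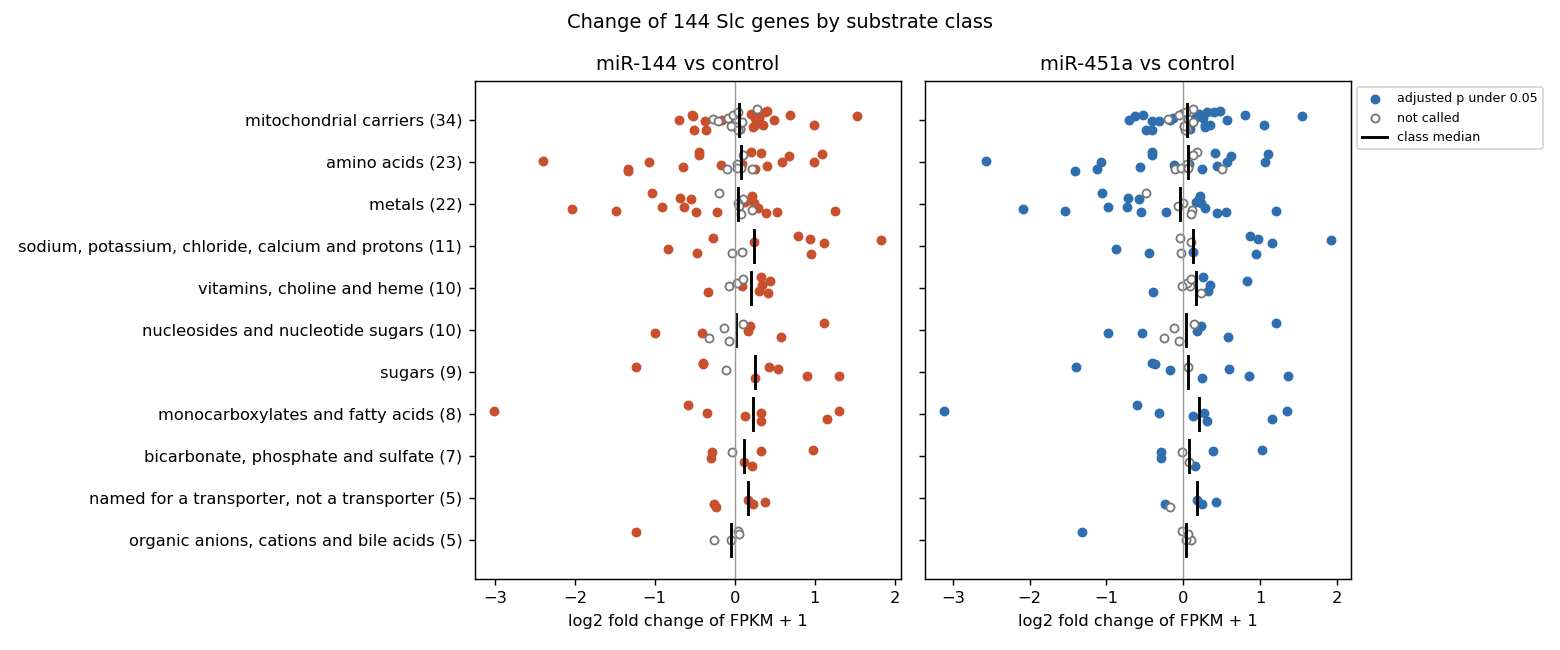
Log2 fold change of FPKM + 1 (x axis) of each of the 144 members, grouped by substrate class (y axis, number of members in parentheses), for miR-144 against control (left) and miR-451a against control (right). Filled points passed an adjusted p of 0.05, open points did not, black bars are class medians, and both directions are seen in nearly every class, with Slc27a6 farthest to the left at -3.01 and -3.12.

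Among the transporters of amino acids and related compounds, 9 of 23 members were higher and 8 lower in the miR-144 group, and 8 higher and 8 lower in the miR-451a group. Slc6a6, the taurine transporter, had the highest level of all members, at 251 ± 6.48 FPKM in the control samples (mean ± SD, n = 5, as for all such values), 268 ± 6.28 FPKM in the miR-144 samples and 265 ± 9.41 FPKM in the miR-451a samples. Its difference from control was small (0.09 and 0.07 log2 units), and its sign turned under median centring (-0.04 and -0.07).

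Slc6a12, the betaine transporter, fell most in this class. Its FPKM was 68.6, 66.5, 58.7, 54.7 and 72.3 in control samples 1 to 5, 15.95, 15.2, 6.55, 5.47 and 19.9 in miR-144 samples 1 to 5, and 13.8, 12.7, 6.07, 4.33 and 19.7 in miR-451a samples 1 to 5. Every miRNA sample was below every control sample, and samples 3 and 4 were the lowest of each group. On the means, the level was 5.08-fold lower with miR-144 (log2 fold change -2.40 ± 0.37 SE, adjusted p = 4.3e-05) and 5.67-fold lower with miR-451a (-2.57 ± 0.37, adjusted p = 2.1e-05). Without the samples numbered 3 and 4, a choice made after seeing the data, the changes were -1.97 and -2.12. Slc6a8, which imports creatine, was at 39.3, 36.9, 38.1, 35.3 and 27.4 FPKM in the control samples, 12.001, 12.3, 12.3, 18.1 and 12.9 FPKM in the miR-144 samples and 16.7, 15.97, 11.9, 17.1 and 16.7 FPKM in the miR-451a samples. The groups did not overlap with control for this gene either, and it was 2.62-fold and 2.26-fold lower (-1.33 and -1.13 log2 units).

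Slc15a3, a lysosomal transporter of histidine and small peptides, was at 76.2, 77.8, 81.7, 87.7 and 72.2 FPKM in the control samples, 34.8, 28.6, 30.8, 30.2 and 29.9 FPKM with miR-144 and 26.2, 28.4, 29.8, 30.9 and 30.3 FPKM with miR-451a. It fell by 1.33 log2 units with miR-144 (adjusted p = 4.1e-11) and by 1.41 log2 units with miR-451a (adjusted p = 1.9e-11). About 32% of its exon bases are overlapped by Tmem132a in GENCODE M21, so part of its reads may belong to that gene. Its relative Slc15a4, also lysosomal, moved the other way, from 13.3 ± 0.944 FPKM to 21.9 ± 1.82 and 21.1 ± 3.25 FPKM (0.68 and 0.62 log2 units, both called). Slc36a4, a transporter of proline and tryptophan, went from 28.3 ± 1.19 FPKM to 12.9 ± 0.508 and 12.9 ± 0.673 FPKM, a fall of 1.07 log2 units in each comparison.

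Slc3a2 is the heavy chain (4F2hc, CD98) that carries the light chains of family 7 to the cell surface. The heavy chain fell from 52.8 ± 2.48 FPKM to 38.4 ± 2.21 FPKM with miR-144 and 39.6 ± 2.19 FPKM with miR-451a (-0.45 and -0.41 log2 units). Among its light chains Slc7a7 (y+LAT1) rose. Its FPKM was 4.78, 5.35, 5.22, 4.20 and 5.48 in the control, 10.9, 10.4, 13.5, 14.01 and 10.3 in the miR-144 and 11.6, 11.3, 13.1, 13.6 and 10.2 in the miR-451a samples (1.09 and 1.11 log2 units). Slc7a8 (LAT2) rose as well, from 8.55 ± 0.252 FPKM to 18.05 ± 0.898 and 19.005 ± 0.961 FPKM. Slc7a5 (LAT1) was at 2.80 ± 0.387, 3.11 ± 0.564 and 3.16 ± 0.603 FPKM in the control, miR-144 and miR-451a samples, and Slc7a6 (y+LAT2) at 5.33 ± 0.431, 5.68 ± 0.709 and 5.23 ± 0.585 FPKM. Neither passed the test in either comparison. The glutamine transporter Slc1a5 fell from 14.4 ± 0.848 FPKM to 8.82 ± 0.426 and 9.36 ± 0.449 FPKM, and the leucine and phenylalanine transporter Slc43a2 rose from 32.1 ± 1.92 FPKM to 49.3 ± 6.81 and 48.4 ± 7.37 FPKM.

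In the metal class, 7 of 22 members were higher and 9 lower in the miR-144 group and 8 higher and 9 lower in the miR-451a group. Slc39a1, a zinc importer of the plasma membrane, had the highest level (83.8 ± 2.64, 71.8 ± 0.740 and 71.7 ± 1.95 FPKM in the control, miR-144 and miR-451a samples), and a share of its sequence occurs also in its pseudogene Slc39a1-ps.

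The largest falls of the class were in 2 zinc exporters. Slc30a4, which loads zinc into vesicles, was at 22.8, 23.7, 23.5, 23.4 and 22.1 FPKM in the control samples, 4.98, 5.14, 4.77, 4.45 and 5.07 FPKM in the miR-144 samples and 5.14, 4.84, 4.33, 4.85 and 4.34 FPKM in the miR-451a samples. This was 4.73-fold lower with miR-144 (-2.04 ± 0.04 log2 units, adjusted p = 1.3e-14) and 4.92-fold lower with miR-451a (-2.08 ± 0.04, adjusted p = 9.5e-15), with little spread within any group. Slc30a1, which moves zinc out of the cell, was at 18.7, 17.9, 21.4, 21.3 and 16.7 FPKM in the control samples, 6.13, 5.54, 7.47, 6.80 and 5.10 FPKM in the miR-144 samples and 5.77, 5.50, 6.14, 6.69 and 5.58 FPKM in the miR-451a samples. It was 3.09-fold and 3.23-fold lower (-1.49 and -1.54 log2 units), and samples 3 and 4 were the highest within each group. The other 4 Slc30 members showed small differences: Slc30a9, of mitochondria, was higher in both comparisons (0.13 and 0.16), Slc30a5 with miR-451a alone (0.20), and Slc30a6 and Slc30a7, which supply zinc to the secretory pathway with Slc30a5, passed in neither. Under median centring neither Slc30a9 nor Slc30a5 was called in either comparison.

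The 250 bases before the transcription start of Slc30a1 and Slc30a4, from RefSeq (GRCm38.p6, each written in the direction of transcription), are shown since these are the 2 zinc exporters that fell. The Slc30a1 window is chr1:191906531-191906780 on the plus strand and the Slc30a4 window chr2:122702664-122702913 on the minus strand. Capitals mark the letters TGCACNC or TGCGCNC on either strand, the core of the metal response element to which the zinc sensor MTF-1 binds.
Slc30a1: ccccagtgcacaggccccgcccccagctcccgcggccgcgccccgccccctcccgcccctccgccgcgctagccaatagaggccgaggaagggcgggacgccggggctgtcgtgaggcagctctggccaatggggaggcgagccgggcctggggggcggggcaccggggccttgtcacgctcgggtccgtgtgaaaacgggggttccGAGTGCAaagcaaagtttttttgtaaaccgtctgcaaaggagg
Slc30a4: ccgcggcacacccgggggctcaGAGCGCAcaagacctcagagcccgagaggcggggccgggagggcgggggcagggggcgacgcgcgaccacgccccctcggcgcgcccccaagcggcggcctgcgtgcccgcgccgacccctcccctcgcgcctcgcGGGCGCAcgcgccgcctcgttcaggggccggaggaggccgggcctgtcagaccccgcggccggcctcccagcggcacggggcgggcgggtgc

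The Slc30a1 window holds 1 such match and the Slc30a4 window 2, all on the opposite strand. Of 32851 windows of 250 bases in the promoter table, 21.4% hold at least 1 match, so the letters are common. Promoters were matched by symbol for 108 of the 144 members, and 43 of their 150 windows (28.7%) held a match, as did 3 of 6 windows of the Slc30 and 4 of 11 windows of the Slc39 members.

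Of 11 Slc39 members, mostly zinc importers, 5 were lower and 4 higher with either microRNA, beside 20.1% and 20.3% of all genes lower and 47.1% and 48.1% higher. Slc39a4 and Slc39a8 are among the 7 members that passed the limit of level through the groups in which they were high. The lower ones were Slc39a1, Slc39a6, Slc39a7, Slc39a10 and Slc39a11. Slc39a6, of the plasma membrane, went from 25.2 ± 0.628 FPKM to 11.8 ± 0.835 and 11.6 ± 0.473 FPKM (-1.03 and -1.05 log2 units), and its partner Slc39a10 from 11.4 ± 0.624 FPKM to 6.94 ± 0.451 and 6.47 ± 0.365 FPKM. Slc39a11 went from 22.3 ± 0.713 FPKM to 11.4 ± 0.801 and 10.8 ± 0.569 FPKM. The value of Slc39a7, which releases zinc from the endoplasmic reticulum, is uncertain, since 84% of its 50-base stretches occur also in Gm20427.

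The higher ones were Slc39a4, Slc39a8, Slc39a13 and Slc39a14, all at low levels. Slc39a4, best known from zinc uptake in the gut, was at 0.265, 0.116, 0.0754, 0.129 and 0.400 FPKM in the control samples, 2.33, 2.08, 1.49, 1.26 and 2.24 FPKM in the miR-144 samples and 1.99, 1.9995, 1.03, 1.37 and 2.63 FPKM in the miR-451a samples. Its lowest control value was close to the 0.070 FPKM that 3 fragments would give, and it changed by 1.26 ± 0.15 and 1.21 ± 0.15 log2 units on the log2(FPKM + 1) scale. The gene was selected through this difference, so no p is given for it. In the miRNA groups, samples 3 and 4 were the lowest. Without the samples numbered 3 and 4 of each group the changes were 1.36 and 1.35. Of a pair that also takes up manganese and iron, Slc39a14 rose by 0.29 and 0.28 log2 units, and Slc39a8, selected in the same way as Slc39a4, differed by 0.39 and 0.44. Under median centring Slc39a13 was called in neither comparison, and under quantile normalization the call of Slc39a14 with miR-451a was lost.

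**Figure D2:**
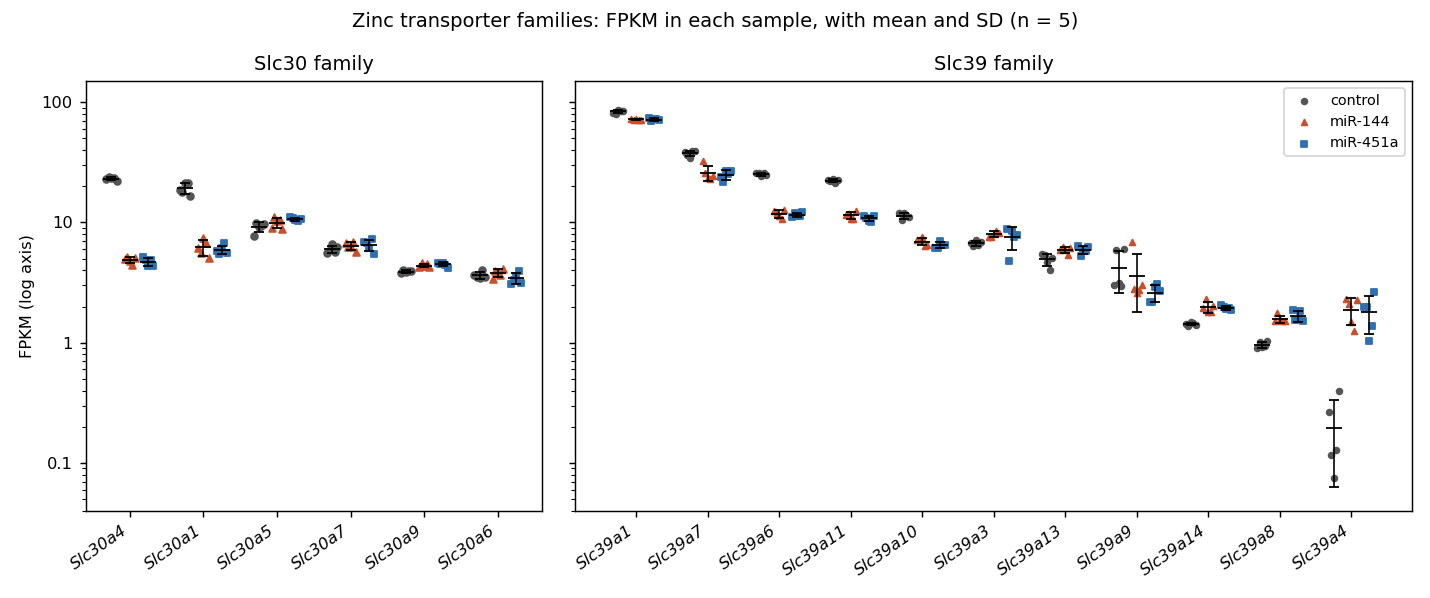
FPKM on a log axis (y axis) of the 6 Slc30 members (left) and the 11 Slc39 members (right), ordered by the control mean, with 1 point a sample and bars for the mean and SD of 5 samples (control, grey circles; miR-144, orange triangles; miR-451a, blue squares). Slc30a4 and Slc30a1 drop in both miRNA groups, from 23.1 and 19.2 FPKM to between 4.70 and 6.21 FPKM, while Slc39a4 goes from 0.197 FPKM to 1.88 and 1.80 FPKM.

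The copper importer Slc31a1 rose from 27.99 ± 0.640 FPKM to 33.4 ± 1.33 and 33.2 ± 1.22 FPKM, and Slc31a2, of endosomes, fell from 51.6 ± 2.64 FPKM to 36.7 ± 1.19 and 34.8 ± 0.666 FPKM. Of the magnesium transporters Slc41a2 fell (-0.68 and -0.72 log2 units), Slc41a3 rose (0.53 and 0.56), and Slc41a1 did not pass in either comparison (0.04 and -0.01).

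The sugar class had 5 of 9 members higher and 3 lower with miR-144, and 4 higher and 4 lower with miR-451a. Slc5a3 imports myo-inositol, like betaine a compatible osmolyte, and fell with Slc6a12. Its FPKM was 23.3, 24.2, 16.9, 17.4 and 25.2 in control samples 1 to 5, 10.9, 10.6, 6.02, 4.92 and 11.98 in the miR-144 samples and 9.90, 8.94, 4.78, 4.42 and 11.3 in the miR-451a samples. The miRNA samples were all below the control samples, and 3 and 4 were again the lowest of each group. The change was -1.23 ± 0.26 log2 units (adjusted p = 7.9e-04) and -1.40 ± 0.26 (adjusted p = 2.5e-04), and -1.05 and -1.20 without the samples numbered 3 and 4. Slc2a6 (GLUT6), a lysosomal glucose transporter named after its values were seen, was at 33.9, 31.9, 28.8, 27.9 and 34.3 FPKM in the control samples, 24.8, 27.8, 18.2, 18.6 and 30.4 FPKM with miR-144 and 26.1, 25.4, 18.97, 16.9 and 32.8 FPKM with miR-451a. Its groups overlapped and its call was marginal (adjusted p = 0.049 and 0.047). The call was lost without samples 3 and 4 of each group (adjusted p = 0.051 and 0.065). It was also lost in each comparison when any of 7 single libraries was left out, namely control sample 1, 2, 3 or 5, miR-144 sample 1, 3 or 4, and miR-451a sample 2, 3 or 4.

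**Figure D3:**
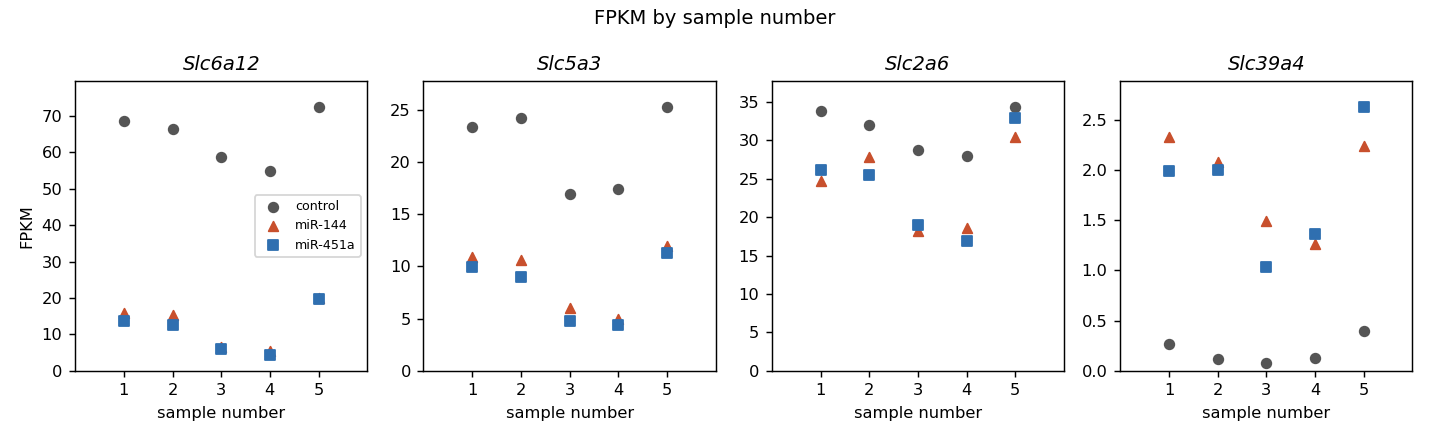
FPKM (y axis) of Slc6a12, Slc5a3, Slc2a6 and Slc39a4 against the sample number in the labels (x axis), for the control (grey circles), miR-144 (orange triangles) and miR-451a (blue squares) groups. Samples 3 and 4 are the lowest of their group for the first 3 genes, and of both miRNA groups for Slc39a4.

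A pattern of this kind, with samples 3 and 4 below samples 1, 2 and 5 in each of the 3 groups, was seen for 5 members (Slc6a12, Slc5a3, Slc2a6, Slc38a2 and Slc7a6), or 3.47%, beside 3.33% of all genes tested. The reverse, with samples 3 and 4 above the others in each group, was seen for 6 members (Slc7a8, Slc38a9, Slc31a2, Slc30a1, Slc29a3 and Slc29a1), or 4.17%, beside 1.23% of all genes. The labels do not say what the numbers mean, and the cause was not tested. Without the samples numbered 3 and 4, 52 members (36.1%) were higher and 40 (27.8%) lower with miR-144, beside 39.9% and 17.6% of all genes, and 54 (37.5%) were higher and 40 (27.8%) lower with miR-451a, beside 41.6% and 18.2%. The Kupffer cell marker Cd5l moved with the sample number too, in the miRNA groups. It was at 44.9 and 48.9 FPKM in miR-144 samples 3 and 4 against 16.4 to 19.7 FPKM in samples 1, 2 and 5, at 38.4 and 46.1 FPKM against 15.3 to 18.3 FPKM in the miR-451a group, and at 3.21 to 3.65 FPKM in all control samples. Its part in the pattern was not tested.

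Of the other sugar transporters, Slc45a4 rose most. It was at 4.04, 2.30, 3.41, 3.16 and 4.07 FPKM in the control samples, 8.37, 10.9, 10.5, 9.93 and 9.25 FPKM in the miR-144 samples and 9.55, 10.3, 9.73, 10.9 and 10.5 FPKM in the miR-451a samples. Its groups were apart from control, with a 2.88-fold and 3.004-fold higher mean (1.31 and 1.36 log2 units). Slc2a9, which carries urate as well as hexoses, rose from 1.67 ± 0.180 FPKM to 4.0002 ± 0.265 and 3.84 ± 0.705 FPKM, and the intracellular glucose transporter Slc2a8 from 2.94 ± 0.192 FPKM to 4.77 ± 0.506 and 4.95 ± 0.407 FPKM. Slc37a3 fell (-0.40 and -0.37 log2 units).

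The class for monocarboxylates and fatty acids is small, with 8 members. Of these 5 were higher and 3 lower in each comparison, beside 67.2% and 68.3% of all genes called in either direction, although under median centring Slc27a4 was called in neither and Slc16a13 not with miR-451a. Slc27a6, which takes up long-chain fatty acids, passed the limit of level only through the control group, so it had to differ and its values are a description without a test. It was at 10.8, 10.1, 10.3, 9.56 and 9.82 FPKM in the control samples, 0.433, 0.648, 0.140, 0.324 and 0.409 FPKM in the miR-144 samples and 0.502, 0.319, 0.132, 0.185 and 0.306 FPKM in the miR-451a samples. The lowest miRNA samples lay near the 0.078 FPKM that 3 fragments would give, so the ratio of means, 25.9-fold and 35.1-fold lower, is imprecise. On the log2(FPKM + 1) scale the difference was -3.01 ± 0.09 and -3.12 ± 0.09. Its relative Slc27a1 stayed the most abundant member of the class and fell from 42.3 ± 1.71 FPKM to 33.1 ± 2.03 and 33.97 ± 2.48 FPKM.

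The monocarboxylate transporters moved apart. Slc16a1 (MCT1) fell from 3.16 ± 0.371 FPKM to 1.78 ± 0.203 and 1.75 ± 0.260 FPKM. Slc16a6 (MCT7), a ketone body exporter, rose from 2.92 ± 0.335 FPKM to 7.69 ± 0.718 and 7.76 ± 0.953 FPKM (1.15 and 1.16 log2 units), and 26% of its exon bases are overlapped by Amz2. Slc16a7 (MCT2), named after its values were seen, was at 1.24, 2.99, 1.25, 1.26 and 1.13 FPKM in the control samples, 5.55, 2.18, 7.10, 7.02 and 5.68 FPKM with miR-144 and 6.26, 2.36, 6.98, 7.21 and 5.67 FPKM with miR-451a. Sample 2 was the highest of the control group and the lowest of both miRNA groups, so the groups overlapped. The gene was called higher (1.31 and 1.36 log2 units), and not without the samples numbered 3 and 4 (adjusted p = 0.068 and 0.051).

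Mitochondrial carriers, the Slc25 family, were the most numerous class, with 34 members, of which 13 were higher and 7 lower with miR-144 and 14 higher and 9 lower with miR-451a. Slc25a23, Slc25a27 and Slc25a40 are among the members that passed the limit of level through the groups in which they were high. Slc25a5, an ADP/ATP carrier, was the most abundant. It was at 191, 200.03, 175, 186 and 188 FPKM in the control samples, 113, 118, 112, 117 and 119.5 FPKM in the miR-144 samples and 115, 121, 112, 114 and 112 FPKM in the miR-451a samples, a fall of 0.69 and 0.70 log2 units. Its sequence is shared in part (47% of 50-base stretches) with Gm5560. The second ADP/ATP carrier, Slc25a4, rose from 36.3 ± 0.914 FPKM to 44.4 ± 1.81 and 45.2 ± 1.90 FPKM.

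Slc25a37 (mitoferrin 1), which imports iron into mitochondria, rose most in this class. It was at 3.12, 3.68, 2.81, 2.92 and 3.38 FPKM in the control samples, 11.7, 11.7, 11.1, 9.80 and 10.97 FPKM in the miR-144 samples and 11.6, 11.1, 11.005, 10.7 and 11.6 FPKM in the miR-451a samples. The control and miRNA samples were far apart, with a 3.47-fold and 3.52-fold higher mean (1.53 ± 0.06 and 1.55 ± 0.06 log2 units, adjusted p = 4.4e-12 and 3.5e-12). Mitoferrin 2, Slc25a28, rose less, from 4.98 ± 0.335 FPKM to 6.79 ± 0.638 and 6.90 ± 0.534 FPKM. Slc25a36, a carrier of pyrimidine nucleotides, rose from 5.35 ± 0.254 FPKM to 9.28 ± 0.373 and 10.1 ± 0.572 FPKM, and the ATP-Mg and phosphate carrier Slc25a23, selected through its miRNA groups and so without a test, went from 0.945 ± 0.189 FPKM to 2.87 ± 0.314 and 3.04 ± 0.220 FPKM.

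The citrate carrier Slc25a1 fell from 39.8 ± 1.74 FPKM to 27.5 ± 2.76 and 25.6 ± 2.64 FPKM. Of the aspartate and glutamate carriers, Slc25a12 rose (0.35 and 0.36 log2 units) and Slc25a13 fell (-0.53 and -0.52). The phosphate carrier Slc25a3, second in level, was at 50.3 ± 1.13, 52.6 ± 1.52 and 52.1 ± 1.82 FPKM in the control, miR-144 and miR-451a samples and did not pass in either comparison. Slc25a26, just above the limit of level, did not pass on the deposited scale (-0.04 and 0.01) and was called lower under median centring (-0.18 and -0.13). Slc25a35, also just above it, was called in neither comparison (0.09 and 0.13), and was called higher with miR-451a when control sample 3 was left out (0.18, adjusted p = 0.024) and when the values were rescaled to TPM (0.26, adjusted p = 0.042).

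**Figure D4:**
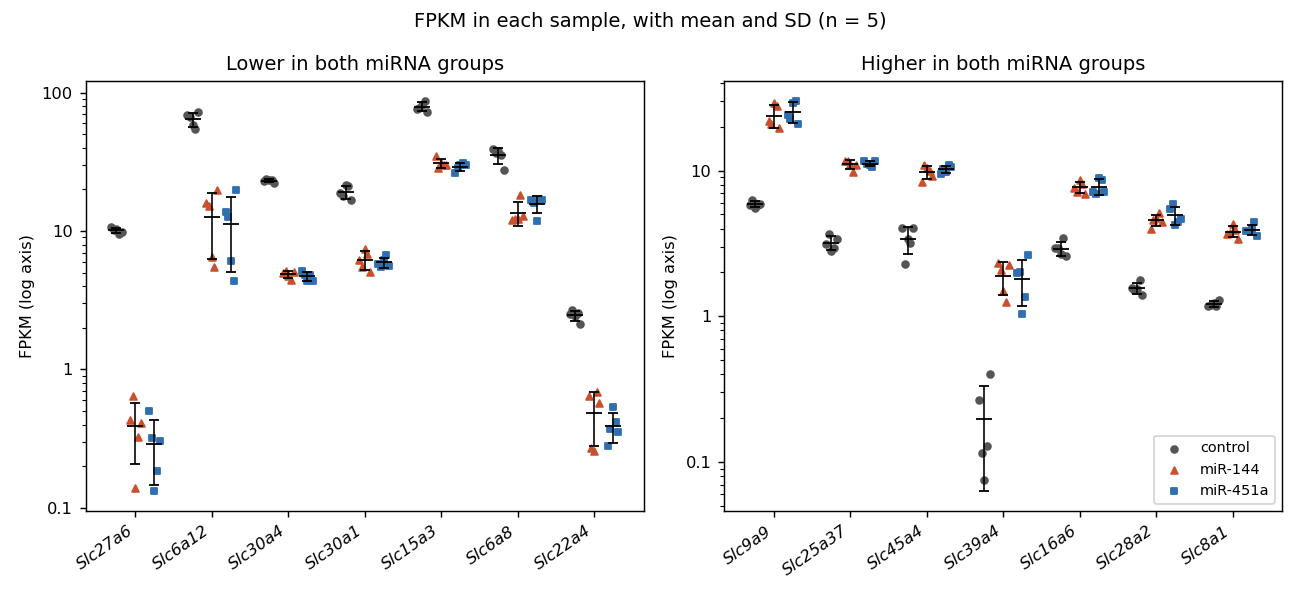
FPKM on a log axis (y axis) of 7 members that were lower (left) and 7 that were higher (right) in both miRNA groups, with 1 point a sample and bars for the mean and SD of 5 samples (control, grey circles; miR-144, orange triangles; miR-451a, blue squares). The genes were picked among those whose miRNA samples are all on one side of the control samples, so that separation is not a result. The shift is largest for Slc27a6 on the left, from 10.1 FPKM to 0.391 and 0.289 FPKM. Slc27a6 and Slc22a4 reached the limit of level through the control group, and Slc39a4 through the miRNA groups.

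Among nucleoside and nucleotide sugar transporters, 4 of 10 members were higher and 2 lower in each comparison. The most abundant was Slc29a3, which releases nucleosides from lysosomes. It was at 54.5, 53.3, 58.4, 57.3 and 51.6 FPKM in the control samples, 26.02, 25.98, 29.9, 29.7 and 24.1 FPKM in the miR-144 samples and 27.04, 26.6, 29.5, 28.2 and 26.1 FPKM in the miR-451a samples. That was 2.03-fold and 2.001-fold lower (-0.997 and -0.98 log2 units), with samples 3 and 4 highest in each group. The plasma membrane transporter Slc29a1 was at 19.1 ± 1.38, 17.3 ± 1.14 and 17.5 ± 1.56 FPKM and did not pass. Single libraries decided this. It was called lower with miR-144 without control sample 1 (adjusted p = 0.048) or miR-144 sample 4 (0.032). With miR-451a it was called lower without miR-451a sample 4 (adjusted p = 0.036). Slc28a2, which concentrates purine nucleosides in the cell, rose from 1.56 ± 0.131 FPKM to 4.55 ± 0.400 and 4.94 ± 0.675 FPKM (1.12 and 1.21 log2 units), and 40% of its 50-base stretches also occur in Gm14085. Of the Golgi transporters, the CMP-sialic acid transporter Slc35a1 rose from 3.73 ± 0.237 FPKM to 6.05 ± 0.249 and 6.09 ± 0.558 FPKM.

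The class of sodium, potassium, chloride, calcium and proton transporters had 6 of 11 members higher and 3 lower with miR-144, and 6 higher and 2 lower with miR-451a. Slc9a9 (NHE9), a sodium and proton exchanger of endosomes, rose most of all members on the log2(FPKM + 1) scale. It was at 5.80, 6.33, 5.56, 5.78 and 5.93 FPKM in the control samples, 21.8, 20.95, 29.04, 27.7 and 19.5 FPKM in the miR-144 samples and 23.99, 22.7, 29.05, 30.3 and 20.9 FPKM in the miR-451a samples. Every miRNA sample was above 19 FPKM and every control sample under 7 FPKM. The mean was 4.05-fold and 4.32-fold higher (1.84 ± 0.11 and 1.93 ± 0.11 log2 units, adjusted p = 1.4e-09 and 7.6e-10). Slc9a7, another exchanger of organelles, rose from 3.14 ± 0.238 FPKM to 6.17 ± 0.343 and 6.55 ± 0.424 FPKM.

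The potassium and chloride cotransporter Slc12a4 (KCC1) fell from 30.2 ± 1.68 FPKM to 16.4 ± 1.26 and 16.1 ± 1.17 FPKM. Its relative Slc12a9 rose by 0.94 and 0.97 log2 units. The sodium and calcium exchanger Slc8a1 was at 1.17, 1.20, 1.23, 1.18 and 1.29 FPKM in the control samples, 3.67, 3.75, 4.32, 3.90 and 3.42 FPKM in the miR-144 samples and 3.83, 3.88, 3.95, 4.44 and 3.54 FPKM in the miR-451a samples, without overlap (1.12 and 1.15 log2 units).

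Of 7 members for bicarbonate, phosphate and sulfate, 4 were higher and 2 lower with miR-144 and 3 higher and 2 lower with miR-451a. Slc26a11, an anion transporter of lysosomes, led the class in level and in change, from 17.6 ± 0.951 FPKM to 35.99 ± 4.16 and 36.95 ± 3.86 FPKM (0.98 and 1.02 log2 units). The phosphate importer Slc20a1 rose from 8.80 ± 0.251 FPKM to 11.3 ± 0.326 and 11.8 ± 0.528 FPKM. Slc26a6, which exchanges chloride for other anions, fell from 3.11 ± 0.156 FPKM to 2.36 ± 0.168 and 2.36 ± 0.271 FPKM.

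In the class of vitamins, choline and heme, 6 of 10 members were higher and 1 lower with miR-144, and 4 higher and 1 lower with miR-451a. The lower one was Slc48a1 (HRG1), which passes heme from the digestion of red cells into the cytosol and was the most abundant of the class. It was at 84.6, 82.1, 83.6, 82.7 and 90.01 FPKM in the control samples, 65.7, 65.6, 66.96, 69.5 and 68.3 FPKM in the miR-144 samples and 62.9, 61.2, 65.4, 64.5 and 66.6 FPKM in the miR-451a samples. The groups did not overlap with control, and the change was -0.33 and -0.39 log2 units. The folate transporters Slc19a1 and Slc46a1 rose by 0.31 and 0.32 and by 0.35 and 0.35 log2 units. Under quantile normalization neither passed in either comparison.

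Of 5 members for organic anions, cations and bile acids, 4 passed in neither comparison. The fifth, Slc22a4, passed the limit of level only through the control group, so its difference is a description without a test. This importer of ergothioneine was at 2.51, 2.67, 2.42, 2.56 and 2.13 FPKM in the control samples, 0.643, 0.272, 0.257, 0.687 and 0.572 FPKM in the miR-144 samples and 0.278, 0.370, 0.536, 0.420 and 0.356 FPKM in the miR-451a samples. It was 5.06-fold and 6.28-fold lower on the means (-1.23 and -1.31 log2 units). Its relative Slc22a5, the carnitine importer, was at 4.07 ± 0.202, 3.94 ± 0.628 and 4.23 ± 0.349 FPKM, and 27% of its 50-base stretches also occur in Slc22a21.

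A further 5 members carry a transporter's symbol without being transporters. The scaffold protein Slc9a3r1 (NHERF1) fell from 56.4 ± 2.33 FPKM to 46.9 ± 3.17 and 47.8 ± 1.90 FPKM, Slc7a6os rose by 0.23 and 0.24 log2 units, and Slc2a4rg-ps by 0.38 and 0.43.

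Several transporters had uneven values within a group, which limits their test. Slc36a1, a lysosomal amino acid transporter, was at 18.8, 16.5, 18.97, 5.80 and 18.4 FPKM in the control samples, 19.6, 21.4, 7.45, 23.5 and 19.1 FPKM in the miR-144 samples and 20.9, 20.2, 22.7, 22.3 and 19.8 FPKM in the miR-451a samples. Control sample 4 and miR-144 sample 3 were far below all others. The gene was not called (0.22 ± 0.31 and 0.51 ± 0.31 log2 units), and without control sample 4 the change with miR-144 was -0.08. Without the samples numbered 3 and 4 it was called higher with miR-451a (0.17, adjusted p = 0.035), and the change with miR-144 was 0.16 (adjusted p = 0.052). Slc17a5, which exports sialic acid from lysosomes, was at 15.2, 15.6, 14.99, 14.8 and 15.7 FPKM in the control samples, 10.6, 11.5, 11.6, 11.3 and 19.9 FPKM in the miR-144 samples and 20.7, 22.1, 11.1, 21.3 and 11.01 FPKM in the miR-451a samples. Within the miRNA groups it lay between 10.6 and 11.6 FPKM or between 19.9 and 22.1 FPKM with none between, and it was not called.

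Slc37a2, a sugar phosphate exchanger that was the most abundant of the sugar class, was at 42.1, 41.3, 42.3, 40.5 and 62.4 FPKM in the control samples, 70.3, 48.8, 69.4, 49.3 and 71.96 FPKM in the miR-144 samples and 48.3, 45.4, 46.9, 46.8 and 48.01 FPKM in the miR-451a samples. Control sample 5 and miR-144 samples 1, 3 and 5 were above 60 FPKM and the rest under 50 FPKM. It was called with miR-144 (0.43 ± 0.13, adjusted p = 0.0086), but not under median centring (adjusted p = 0.057) or without the samples numbered 3 and 4 (adjusted p = 0.098). Slc46a3, a lysosomal transporter, was at 21.99, 28.2, 30.5, 28.2 and 29.04 FPKM in the control samples, 28.8, 45.6, 34.9, 49.9 and 32.7 FPKM in the miR-144 samples and 47.9, 50.98, 50.3, 51.03 and 46.6 FPKM in the miR-451a samples. The miR-451a samples were all above the control samples (0.83 ± 0.13, adjusted p = 3.3e-05), while the miR-144 samples spread from the control range to the miR-451a range (0.44 ± 0.13, adjusted p = 0.0062). Without the samples numbered 3 and 4 the call with miR-144 was lost (adjusted p = 0.060). The cause of these uneven values was not tested.

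**Figure D5:**
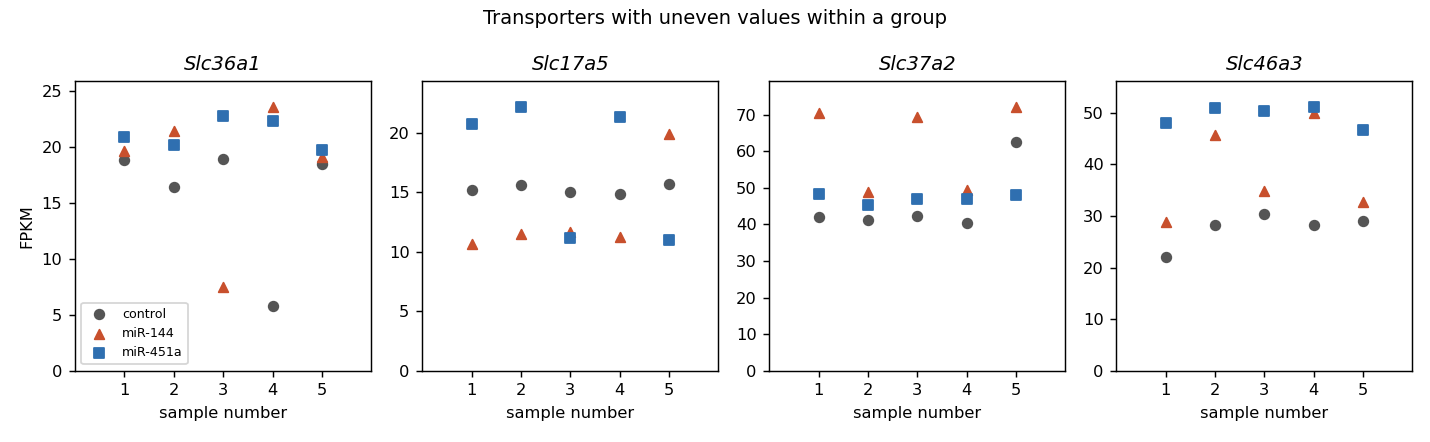
FPKM (y axis) of Slc36a1, Slc17a5, Slc37a2 and Slc46a3 against the sample number in the labels (x axis), for the control (grey circles), miR-144 (orange triangles) and miR-451a (blue squares) groups. Values fall at separate levels within a group, such as 5.80 FPKM in control sample 4 against 16.5 to 18.97 FPKM in the other control samples for Slc36a1.

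Slc38a9, the lysosomal arginine sensor of mTORC1, was among the least changed of the named genes. It was at 2.77 ± 0.186, 2.83 ± 0.273 and 2.91 ± 0.0786 FPKM in the control, miR-144 and miR-451a samples (0.02 ± 0.05 and 0.06 ± 0.05 log2 units) and did not pass, though with quantile normalization it was called lower with miR-144 (-0.14) and with the values rescaled to TPM it was called higher with miR-451a (0.14, adjusted p = 0.043).

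Set against each other, the miR-451a and miR-144 samples differed in no member at an adjusted p of 0.05 with limma, and 0% of all genes did. At an unadjusted p under 0.05 there were 5 members and 596 of 11419 genes. The largest differences were in Slc46a3 (0.38 ± 0.13 log2 units, miR-451a minus miR-144) and Slc37a2 (-0.37 ± 0.13), both among the uneven genes above. Only 2 members, Slc37a2 and the choline transporter Slc44a1, had samples of the 2 groups that did not overlap, or 1.39%, beside 0.849% of all genes. Slc44a1 was at 15.5 ± 0.299 FPKM with miR-144 and 14.9 ± 0.396 FPKM with miR-451a, a difference of -0.06 ± 0.03 log2 units.

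A list of partner proteins and other transporters was counted beside the members, and 32 of its genes reached a mean of 1 FPKM. Of these 11 were higher and 14 lower with miR-144, and 11 higher and 15 lower with miR-451a, beside 47.1% and 48.1% of all genes higher and 20.1% and 20.3% lower, and their median change was -0.03 and -0.08 log2 units, beside 0.13 and 0.14 over all genes. The chaperones of the monocarboxylate transporters parted, with Emb higher (21.5, 30.7 and 31.2 FPKM in the control, miR-144 and miR-451a means) and Bsg lower (107, 91.6 and 72.6 FPKM). Both subunits of the mitochondrial pyruvate carrier, Mpc1 (14.99, 11.6 and 11.7 FPKM) and Mpc2 (2.05, 1.71 and 1.62 FPKM), were lower. The lysosomal cystine transporter Ctns was lower (24.2, 19.9 and 20.5 FPKM), and so was Mfsd12 (231, 104 and 100.03 FPKM), which carries cysteine into lysosomes and melanosomes. The organic anion transporter Slco3a1 was higher (1.05, 3.66 and 3.53 FPKM). Of the 15 Slc genes with another family letter, 7 were higher and 6 lower in each comparison, among them the mitochondrial calcium and sodium exchanger Slc8b1 (69.1, 47.999 and 46.9 FPKM), which was lower.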

How the data were processed

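Macrophages sorted from liver tumors of 3 groups of mice, 5 samples each, were profiled by RNA sequencing on an Illumina HiSeq instrument. The authors deposited 1 table of FPKM values per gene for all 15 samples. Per the labels, FastQC 0.11.2, STAR and StringTie were used, and the genome build and annotation are not given in the sources used here. Whole reads could not be recovered from the FPKM values, so no count model was used. Groups came from the sample titles.

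The members and lists were chosen with earlier results of these data known. Genes that reached 1 FPKM in the mean of all samples entered limma 3.58.1 (R 4.3.3), fitted with a trend to log2(FPKM + 1) over all 3 groups, with Benjamini-Hochberg adjusted p-values over 11419 genes and a threshold of 0.05. Cell type markers were called in a fit of the same kind without that limit, over the 29540 genes above 0 in at least 1 sample. Fold changes on this scale understate the change of low genes. The script was tested on simulated data. Per-sample depth was estimated from the steps of low values, and floors stand for 3 fragments of the longest transcript (counting error only). The members were grouped by known substrate of their family. Named were, in each class, the member with the highest mean, the 3 with the largest change that were called without overlap in both comparisons, members near the mean of 1 FPKM, and a set of lysosomal and heavy chain transporters. Other members given with values were chosen after their values were seen, to describe the rest of a family or class. Gene overlaps and shared 50-base stretches came from GENCODE M21 (GRCm38), which held all 144 members. Sequences are from RefSeq. Alternatives were another pseudocount, other limits on level, median centring, quantile normalization, TPM, no trend, a fit over 2 groups, a replicate block, a minimum change of 1, each sample left out, and, chosen after seeing the data, samples 3 and 4 left out. The values of some members are not reported here.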

Additional observations from a re-analysis of the deposited data

Results flagged for a closer look

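A sample stood far from the other 4 of its group, by Dixon's test, in 12 of 144 groups of samples tested over the 48 named members, where chance alone would give about 1 in 20, or 7.2. Lowest of their group were Slc36a1 in control sample 4 (5.80 FPKM, next 16.5) and in miR-144 sample 3 (7.45 FPKM, next 19.1), Slc46a3 in control sample 1 (21.99 FPKM, next 28.2) and Slc6a8 in miR-451a sample 3 (11.9 FPKM, next 15.97). Highest of their group were Slc17a5 in miR-144 sample 5 (19.9 FPKM, next 11.6), Slc37a2 in control sample 5 (62.4 FPKM, next 42.3), Slc6a8 in miR-144 sample 4 (18.1 FPKM, next 12.9), Slc7a5 in control sample 5 (3.48 FPKM, next 2.73) and in miR-144 sample 2 (4.10 FPKM, next 3.01), Slc38a9 in miR-144 sample 3 (3.30 FPKM, next 2.81), Slc26a6 in miR-144 sample 2 (2.66 FPKM, next 2.34) and Slc25a35 in miR-451a sample 1 (1.29 FPKM, next 1.19). The cause was not tested.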

How the results depend on the processing

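The counts of members called held within 1.5 times under every alternative but 2. With genes of a mean of at least 5 FPKM, which tests fewer genes, 64 of 84 members were called with miR-144 (33 higher) and 66 with miR-451a (34 higher), beside 71.9% and 72.6% of all genes. A minimum change of 1 log2 unit left 19 for miR-144 (9 higher, 10 lower) and 22 for miR-451a (12 higher, 10 lower), beside 7.78% and 8.27% of all genes. Among them were Slc39a4, Slc27a6 and Slc22a4, which had to differ by the way they passed the limit of level. Leaving out each sample in turn gave 98 to 104 members called with miR-144 (59 to 63 higher, 39 to 42 lower), 98 to 102 with miR-451a (57 to 61 higher, 40 to 43 lower) and 0 between the microRNAs, beside 64.7% to 67.3% and 66% to 68.5% of all genes with miR-144 and miR-451a. Among named genes called before or after the change of setting, the sign turned for Slc6a6 under median centring (-0.040 and -0.070), for Slc25a26 with miR-451a under median centring (-0.13) and quantile normalization (-0.18), and for Slc38a9 with miR-144 under quantile normalization (-0.14); the cause was not tested. It also turned for genes called in neither setting, among them Slc36a1 with miR-144 without control sample 4 (-0.08), and Slc7a5 (-0.04) and Slc37a2 (-0.02) with miR-451a without the samples numbered 3 and 4. Slc6a6 also lost its call with miR-451a without control sample 2, 3 or 4 or miR-451a sample 1, 2 or 5 (0.06 to 0.08 log2 units), and with no filter on low values (adjusted p = 0.072), limma without a trend (0.052) and a fit over the 2 groups (0.065). Over all members, leaving out 1 sample cost 5 members their call in the miR-144 comparison and 6 in the miR-451a comparison, and added a call in 6 and 12.

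The replicate numbers were not taken as pairing the samples, since in no comparison was the correlation of deviations from the group means over 0.1 for every same-numbered pair. It ran from -0.13 to 0.11 for miR-144 and control (1 of 5 over 0.1), from 0.066 to 0.26 for miR-451a and control (3 of 5) and from -0.15 to 0.24 between the microRNAs (4 of 5). A sample correlated best with its own number in 1, 3 and 4 of 5 pairs, in that order. With the number as a replicate block, 105 members were called in each comparison with control (61 higher and 44 lower in each), beside 67.5% and 68.8% of all genes, and 0 between the microRNAs. FPKM values hold no counts, so the depth behind each value is an estimate, and values under about 0.2 FPKM rest on few fragments.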
